A study of Homo sapiens with 4 samples.

Results

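The genes described here are 38 genes of homologous recombination, the Fanconi anaemia pathway and the DNA damage checkpoint, taken by name from the 43622 genes of the deposited expression table. All 38 were found, and all 38 passed the filter on low values (a mean over the 12 libraries of 0.1 TPM or more, where TPM are transcripts scaled to a fixed library total), which left 19932 genes for testing. They were grouped by role into 10 genes of the BRCA complex and the recombination mediators, 7 of break sensing and resection, 11 of the Fanconi pathway, 6 of the checkpoint and 4 of junction resolution and end joining.

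Homologous recombination repairs a double-strand break by copying an intact sister chromatid. The broken ends are resected to single strands, BRCA2 and its partners prepare these strands for pairing with the sister, and the joint molecules formed are later dissolved or cut. The Fanconi pathway marks DNA interstrand crosslinks by monoubiquitinating FANCD2 and FANCI and hands the lesion to the same machinery, while the kinases ATM and ATR signal the damage to CHEK2 and CHEK1 and halt the cell cycle.

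RNA-seq was made from PC3 cells, an established human prostate adenocarcinoma line, and from PC3 cells that carried an shRNA against p14ARF, the product of the alternative reading frame of CDKN2A. Each line was given DMSO or 1 µM MLN4924, an inhibitor of the NEDD8-activating enzyme that blocks NEDDylation and with it the cullin-RING ubiquitin ligases, for 3 days. The conditions were PC3 with DMSO (Ctrl), PC3 with MLN4924 (MLN), PC3-shp14ARF with DMSO (shARF) and PC3-shp14ARF with MLN4924 (Both), with 3 libraries each. The shRNA was brought in stably by a retrovirus with hygromycin selection, and no control shRNA is named for the PC3 cells, so the effect of the vector and of selection cannot be told apart from that of p14ARF depletion. The design text calls the line a knockout and gives the dose in mM, whereas the sample labels give an shRNA and µM. The sources used here do not say whether the 3 libraries of a condition were separate cultures, so p-values measure the spread between these libraries, which may be technical.

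CDKN2A was at 190, 183 and 177 TPM in Ctrl and 58.2, 58.7 and 60.9 TPM in shARF, and at 100, 133 and 119 TPM in MLN and 47.2, 41.2 and 54.01 TPM in Both. Every depleted library was below every library of the unmodified line at the same treatment. The epithelial markers KRT8, KRT18, EPCAM and CDH1 were detected in every library, with means between 7.52 and 436 TPM. Their levels moved with the conditions. In MLN vs Ctrl 0 of the 4 were higher and 3 lower, in Both vs shARF 4 were lower (median log2 difference −1.63), in shARF vs Ctrl 4 were higher (median 0.67) and in Both vs MLN 3 were lower. Of all genes tested, 32.2% were higher and 29.4% lower in MLN vs Ctrl, and 32.8% were lower in Both vs shARF. In shARF vs Ctrl 21.0% of them were higher, and in Both vs MLN 20.6% were lower. The 4 summed to between 371 and 414 TPM in Ctrl, 271 and 303 TPM in MLN, 634 and 727 TPM in shARF and 230 and 244 TPM in Both. The part of these markers in the differences of the 38 genes was not tested. Of the prostate luminal markers, KLK3 was listed at 0 in every library. Replicate libraries had Spearman correlations between 0.984 and 0.986 across genes, and no columns were identical. The depth is unknown, since TPM values are scaled to a fixed total in each library. In bulk RNA, fewer cells of a kind and less RNA per cell cannot be told apart.

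In Ctrl the mean level of the 38 genes ran from 1.28 TPM for BRCA2 to 53.8 TPM for UBE2T, with a median of 11.4 TPM. UBE2T, the ubiquitin-conjugating enzyme of the Fanconi pathway, had the highest and BRCA2, the mediator of strand pairing, the lowest mean level in each of the 4 conditions. The median level was 17.8 TPM in MLN, 17.6 TPM in shARF and 19.8 TPM in Both. Summed over the 38 genes, the level was 561 ± 26.5 TPM (SD, n = 3) in Ctrl, 952 ± 36.9 TPM in MLN, 816 ± 7.59 TPM in shARF and 1112 ± 27.8 TPM in Both, and the libraries of the 4 conditions did not overlap in this sum. UBE2T had means of 53.8 ± 6.63 TPM in Ctrl, 166 ± 23.5 TPM in MLN, 89.5 ± 5.51 TPM in shARF and 219 ± 10.5 TPM in Both.

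Promoter sequences were read from RefSeq on GRCh38.p14 for the 35 of 38 genes that had one, as windows of 300 bases from 250 before to 50 after the transcription start. Shown first are 180 bases of the genes with the largest rise and the largest fall under MLN4924 in PC3 cells, RAD51AP1 at chr12:4538740-4538919 (plus strand) and FANCF at chr11:22625794-22625973 (minus strand), from 150 before to 30 after the start. Capitals mark CCAAT boxes, read on either strand.
RAD51AP1: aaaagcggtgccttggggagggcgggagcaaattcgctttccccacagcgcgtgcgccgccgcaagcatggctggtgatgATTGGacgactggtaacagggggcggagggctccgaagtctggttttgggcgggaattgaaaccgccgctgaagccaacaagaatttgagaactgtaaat
FANCF: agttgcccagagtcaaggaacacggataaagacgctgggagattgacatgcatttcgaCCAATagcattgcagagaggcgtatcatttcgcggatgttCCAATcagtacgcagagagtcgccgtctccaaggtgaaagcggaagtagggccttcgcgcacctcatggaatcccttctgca

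The promoters were also searched on both strands for the E2F octamers TTTGGCGC, TTTCCCGC, TTTGCCGC and TTTCGCGC, for TTTGAA, the cell cycle homology region, and for CCAAT. An E2F octamer was in the windows of 7 of 35 genes (20%), against 733 of the 12084 tested genes with a window (6.07%) and 3.99% of all 27305 genes with one. Of the 22 genes with a window that were higher in MLN than in Ctrl 4 held one (XRCC2, EXO1, FANCA and TOPBP1), of the 7 that were lower 0 did, and of the 6 not called 3 did (FANCC, FANCD2 and GEN1). CCAAT was in 54.3% of the members' windows and 43.0% of those of tested genes, and TTTGAA in 17.1% and 14.3%. A match of letters is a description and not a binding site. The stretches around the octamers are shown because E2F factors are known to control many S-phase genes. Capitals mark the octamers. XRCC2 is shown at chr7:152676112-152676145 (minus strand), EXO1 at chr1:241848183-241848233 (plus strand), FANCA at chr16:89816787-89816844 (minus strand), TOPBP1 at chr3:133661916-133661973 (minus strand), FANCC at chr9:95317849-95317906 (minus strand), FANCD2 at chr3:10026410-10026466 (plus strand) and GEN1 at chr2:17753845-17753898 (plus strand).
XRCC2: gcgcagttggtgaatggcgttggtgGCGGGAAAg
EXO1: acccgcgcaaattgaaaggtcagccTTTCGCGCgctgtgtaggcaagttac
FANCA: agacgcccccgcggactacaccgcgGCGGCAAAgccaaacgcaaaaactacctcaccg
TOPBP1: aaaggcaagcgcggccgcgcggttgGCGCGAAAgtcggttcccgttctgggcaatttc
FANCC: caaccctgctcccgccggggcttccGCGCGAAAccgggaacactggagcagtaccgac
FANCD2: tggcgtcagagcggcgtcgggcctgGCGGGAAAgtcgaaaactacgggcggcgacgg
GEN1: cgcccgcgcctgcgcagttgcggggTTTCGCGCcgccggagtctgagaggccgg

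The response to MLN4924 was read in each line against its own DMSO control, on the scale of log2(TPM + 0.1), which understates the change of low genes, with limma and Benjamini-Hochberg adjustment over the 19932 genes tested. In MLN vs Ctrl, the comparison within PC3 cells, 24 of the 38 genes rose, 8 fell and 6 did not pass an adjusted p of 0.05. Of all genes tested, 32.2% rose and 29.4% fell in this comparison. By more than 1 on the log2 scale, 9 of the 38 rose and 3 fell, against 15.6% and 12.4% of all genes. In PC3-shp14ARF cells (Both vs shARF), 17 rose, 12 fell and 9 did not pass, against 28.3% and 32.8% of all genes. By more than 1, 4 rose and 4 fell there, against 13.0% and 13.4%. The median log2 fold change of the 38 genes was 0.55 for PC3 and 0.092 for PC3-shp14ARF cells, where the medians of all genes were 0.052 and −0.038.

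**Figure D1:**
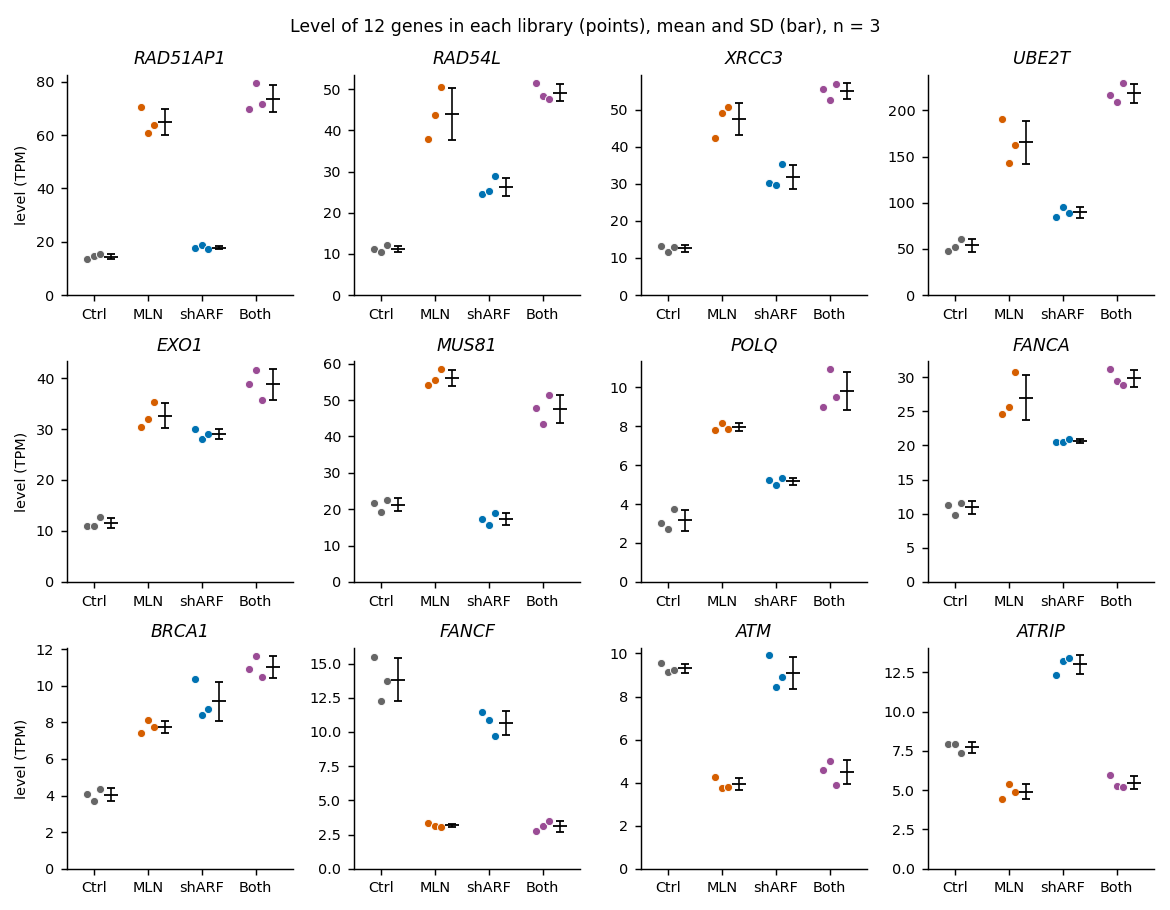
Level in TPM (vertical axis, from 0) of 12 of the 38 genes in each of the 3 libraries (points) of Ctrl, MLN, shARF and Both, with the mean and SD (bar). RAD51AP1 and MUS81 separate by drug, FANCF and ATM fall with the drug in both lines, and XRCC3, RAD54L and EXO1 are also higher in shARF than in Ctrl.

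Among the BRCA complex and recombination mediators, 9 of 10 rose in PC3 cells and 1, PALB2, fell, where 32.2% of all genes tested rose and 29.4% fell. RAD51AP1, which promotes the formation of joint molecules, was at 13.5, 14.6 and 15.3 TPM in Ctrl and 70.3, 60.6 and 63.6 TPM in MLN, and at 17.5, 18.6 and 17.3 TPM in shARF and 69.9, 79.4 and 71.5 TPM in Both. Every treated library lay above every untreated one in both lines, with a log2 fold change of 2.16, SE 0.076, adjusted p = 8.21e-06 in PC3 cells and 2.04, SE 0.062, adjusted p = 4.14e-06 in PC3-shp14ARF cells. The DNA translocase RAD54L, which acts in strand exchange, was at 11.1, 10.4 and 12.1 TPM in Ctrl and 37.9, 43.7 and 50.5 TPM in MLN, against 24.7, 25.3 and 28.8 TPM in shARF and 51.5, 48.5 and 47.6 TPM in Both. Its 4 conditions were ordered Ctrl, shARF and then MLN with Both, and the last pair overlapped. It rose by 1.96, SE 0.12, adjusted p = 4.14e-05 in PC3 cells (log2) and by 0.91, SE 0.071, adjusted p = 0.000111 in PC3-shp14ARF cells. XRCC3, which forms a complex with RAD51C, was at 13.3, 11.6 and 13.01 TPM in Ctrl, 42.5, 49.03 and 50.8 TPM in MLN, 30.2, 29.8 and 35.4 TPM in shARF and 55.6, 52.6 and 56.9 TPM in Both. Untreated PC3 cells had the lowest XRCC3 level by a wide gap, and the rise with MLN4924 was 1.90, SE 0.091, adjusted p = 1.94e-05 in that line and 0.79, SE 0.077, adjusted p = 0.000280 in the other.

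XRCC3 shares 76.7% of its annotated exonic length with KLC1 on the opposite strand, and RAD54L shares 19.9% with LRRC41. Strandedness of the libraries is not given in the sources used here, so these values are uncertain. KLC1 fell in MLN vs Ctrl (−0.84, SE 0.088, adjusted p = 0.000360), and so did LRRC41 (−0.64, SE 0.088, adjusted p = 0.00111).

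BRCA1 and BARD1, the subunits of a ubiquitin ligase at broken ends, were less abundant. BRCA1 was at 4.06, 3.69 and 4.38 TPM in Ctrl, 7.41, 8.11 and 7.72 TPM in MLN, 10.4, 8.39 and 8.70 TPM in shARF and 10.9, 11.6 and 10.5 TPM in Both. MLN4924 raised it in PC3 cells (0.92, SE 0.095, adjusted p = 0.000333), whereas in PC3-shp14ARF cells the difference did not pass (0.27, 95% interval 0.030 to 0.51, adjusted p = 0.0543). BARD1 rose in both lines, by 0.98, SE 0.11, adjusted p = 0.000451 and by 0.41, SE 0.079, adjusted p = 0.00489. BRCA2 averaged 1.28 ± 0.0716 TPM in Ctrl and 1.95 ± 0.0972 TPM in MLN, a rise of 0.57, SE 0.13, adjusted p = 0.00962, and in PC3-shp14ARF cells it did not pass (0.038, 95% interval −0.25 to 0.33, adjusted p = 0.804). PALB2, which bridges BRCA1 and BRCA2, went the other way. It fell from 15.2 ± 0.119 to 12.04 ± 0.539 TPM in PC3 cells (−0.33, SE 0.057, adjusted p = 0.00284) and from 18.7 ± 0.871 to 12.1 ± 1.91 TPM in PC3-shp14ARF cells (−0.63, SE 0.12, adjusted p = 0.00556).

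RAD51C, XRCC2 and the translocase RAD54B also rose in PC3 cells. RAD51C rose by 0.47, SE 0.062, adjusted p = 0.000979 in PC3 cells, and in the depleted line it missed the threshold (0.12, 95% interval 0.0086 to 0.23, adjusted p = 0.0618). XRCC2 was at 9.69, 10.8 and 10.96 TPM in Ctrl, 18.5, 14.9 and 19.8 TPM in MLN, 18.3, 15.3 and 18.3 TPM in shARF and 24.1, 28.9 and 26.5 TPM in Both, with rises of 0.74, SE 0.12, adjusted p = 0.00238 and 0.61, SE 0.10, adjusted p = 0.00263. Its Both libraries stood above those of the other conditions. RAD54B, a relative of RAD54L, was at 6.91, 7.29 and 9.21 TPM in Ctrl, 15.2, 14.3 and 13.5 TPM in MLN, 11.1, 11.8 and 14.1 TPM in shARF and 19.4, 22.6 and 19.8 TPM in Both. It rose by 0.88, SE 0.12, adjusted p = 0.00120 and 0.74, SE 0.11, adjusted p = 0.00171, and it shares 66.0% of its exonic length with FSBP on the same strand, so its reads cannot be assigned with certainty. FSBP itself averaged between 1.04 and 1.70 TPM over the 4 conditions.

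**Figure D2:**
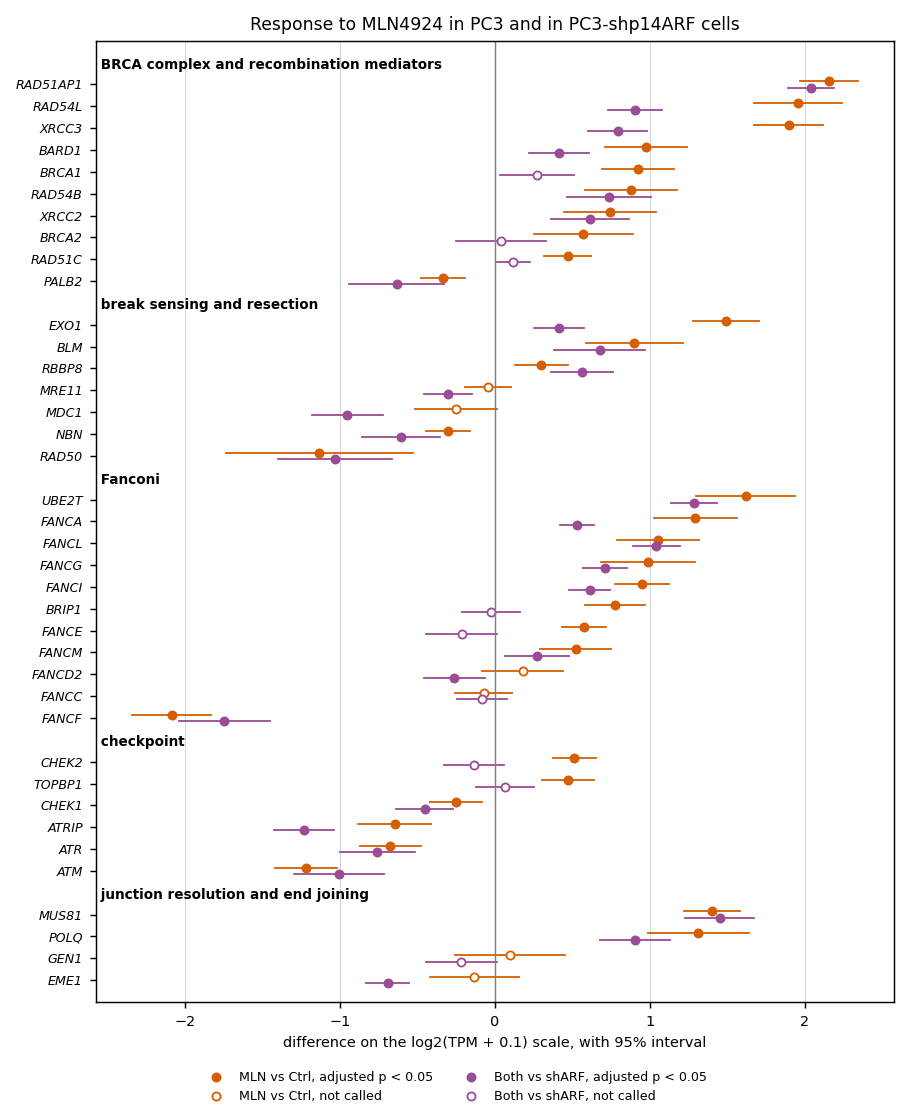
Log2(TPM + 0.1) difference with its 95% interval (horizontal axis) for each of the 38 genes, grouped by role, in PC3 cells (MLN vs Ctrl) and PC3-shp14ARF cells (Both vs shARF); filled points passed an adjusted p of 0.05. The points run from −2.09 for FANCF to 2.16 for RAD51AP1, and for several genes with a rise in PC3 cells, such as EXO1 and XRCC3, the PC3-shp14ARF point lies nearer to 0.

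Of the 7 genes of break sensing and resection, 3 rose in PC3 cells (EXO1, BLM and RBBP8), 2 fell (NBN and RAD50) and 2 did not pass (MRE11 and MDC1). The shares of 42.9% and 28.6% stand against 32.2% and 29.4% of all genes tested. The exonuclease EXO1 was at 11.02, 10.9 and 12.7 TPM in Ctrl, 30.5, 32.03 and 35.3 TPM in MLN, 30.1, 28.1 and 29.02 TPM in shARF and 38.9, 41.6 and 35.7 TPM in Both. Ctrl was far below the other conditions, and MLN4924 raised EXO1 by 1.49, SE 0.086, adjusted p = 3.73e-05 in PC3 cells and by 0.41, SE 0.066, adjusted p = 0.00229 in PC3-shp14ARF cells. The helicase BLM was at 3.82, 3.13 and 3.78 TPM in Ctrl, 6.67, 6.06 and 7.55 TPM in MLN, 6.44, 6.05 and 6.47 TPM in shARF and 8.73, 11.8 and 10.1 TPM in Both, with rises of 0.90, SE 0.13, adjusted p = 0.00134 and 0.68, SE 0.12, adjusted p = 0.00344. RBBP8, the CtIP protein that activates the MRE11 nuclease, rose from 46.2 ± 2.57 to 56.95 ± 3.82 TPM in PC3 cells (0.30, SE 0.069, adjusted p = 0.0101) and from 49.4 ± 0.690 to 73.4 ± 8.12 TPM in PC3-shp14ARF cells (0.56, SE 0.081, adjusted p = 0.00146).

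The 3 subunits of the MRE11-RAD50-NBN complex, which binds broken ends first, did not move together. RAD50 was at 9.75, 7.90 and 11.1 TPM in Ctrl and 5.23, 2.99 and 5.02 TPM in MLN, and at 9.78, 11.6 and 8.71 TPM in shARF and 4.11, 5.41 and 5.05 TPM in Both. It fell by 1.13, SE 0.25, adjusted p = 0.00805 on the log2 scale in PC3 cells and by 1.03, SE 0.15, adjusted p = 0.00153 in PC3-shp14ARF cells, with treated libraries below untreated ones in each line. An unnamed protein-coding gene on the same strand, ENSG00000283782, covers 76.9% of its exonic length. NBN fell by 0.30, SE 0.058, adjusted p = 0.00474 in PC3 cells and by 0.60, SE 0.10, adjusted p = 0.00294 in PC3-shp14ARF cells. MRE11 averaged 18.3 ± 0.590 TPM in Ctrl and 17.8 ± 1.01 TPM in MLN, a difference that did not pass (−0.045, 95% interval −0.20 to 0.11, adjusted p = 0.557), and fell in PC3-shp14ARF cells (−0.30, SE 0.063, adjusted p = 0.00729). MDC1, the adaptor that binds phosphorylated H2AX, had the same pair of calls. In PC3 cells its difference was −0.25, 95% interval −0.52 to 0.016, adjusted p = 0.0912, and in PC3-shp14ARF cells it fell from 29.7 ± 3.01 to 15.3 ± 1.15 TPM (−0.95, SE 0.092, adjusted p = 0.000274).

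Of the 11 Fanconi genes, 8 rose in PC3 cells, FANCF fell, and FANCC and FANCD2 did not pass, against 32.2% higher and 29.4% lower of all genes tested. In PC3-shp14ARF cells 6 rose and 2 fell, against 28.3% and 32.8%. FANCF, an adaptor of the core complex, was at 15.5, 12.3 and 13.7 TPM in Ctrl and 3.32, 3.10 and 3.07 TPM in MLN, and at 11.5, 10.8 and 9.74 TPM in shARF and 2.74, 3.10 and 3.52 TPM in Both. The highest treated library of either line was at 3.52 TPM and the lowest untreated one at 9.74 TPM, a fall of 2.09, SE 0.10, adjusted p = 2.27e-05 in PC3 cells (log2) and of 1.75, SE 0.12, adjusted p = 6.59e-05 in PC3-shp14ARF cells. UBE2T was at 47.8, 52.5 and 60.9 TPM in Ctrl, 190, 144 and 163 TPM in MLN, 84.5, 95.4 and 88.5 TPM in shARF and 217, 209 and 230 TPM in Both. It rose by 1.62, SE 0.13, adjusted p = 0.000128 and by 1.29, SE 0.060, adjusted p = 1.73e-05.

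FANCA, a core subunit, was at 11.3, 9.86 and 11.6 TPM in Ctrl, 24.6, 25.6 and 30.7 TPM in MLN, 20.5, 20.4 and 20.96 TPM in shARF and 31.2, 29.5 and 28.8 TPM in Both. It rose in both lines (1.29, SE 0.11, adjusted p = 0.000148 and 0.53, SE 0.045, adjusted p = 0.000151). FANCA shares 19.6% of its exonic length with ZNF276 on the opposite strand, and ZNF276 fell in MLN vs Ctrl (−0.66, SE 0.087, adjusted p = 0.000959). FANCL, the ubiquitin ligase of the core, rose in PC3 cells (1.05, SE 0.11, adjusted p = 0.000331) and PC3-shp14ARF cells (1.04, SE 0.062, adjusted p = 3.93e-05). FANCG rose by 0.99, SE 0.12, adjusted p = 0.000799 and 0.71, SE 0.058, adjusted p = 0.000132, and the translocase FANCM by 0.52, SE 0.094, adjusted p = 0.00373 and 0.27, SE 0.084, adjusted p = 0.0325. In PC3-shp14ARF cells the call of FANCM was lost without any 1 of the 6 libraries, at an adjusted p of up to 0.0826.

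The 2 substrates of the pathway differed. FANCI was at 22.3, 22.5 and 24.7 TPM in Ctrl, 44.7, 41.9 and 48.1 TPM in MLN, 45.2, 42.1 and 46.4 TPM in shARF and 68.1, 71.2 and 65.1 TPM in Both, and rose by 0.95, SE 0.071, adjusted p = 9.46e-05 and 0.61, SE 0.054, adjusted p = 0.000192. FANCD2 averaged 9.18 ± 0.446 TPM in Ctrl and 10.4 ± 1.30 TPM in MLN (0.18, 95% interval −0.081 to 0.44, adjusted p = 0.192), and fell in PC3-shp14ARF cells (−0.26, SE 0.080, adjusted p = 0.0311), a call lost under 5 of 13 alternatives with an adjusted p of up to 0.0956. FANCE, the core subunit that contacts FANCD2, was at 20.7, 20.03 and 21.4 TPM in Ctrl and 29.3, 30.96 and 32.5 TPM in MLN, and at 24.7, 25.6 and 27.6 TPM in shARF and 24.5, 23.1 and 19.7 TPM in Both. It rose in PC3 cells (0.57, SE 0.057, adjusted p = 0.000284) and did not pass in PC3-shp14ARF cells (−0.21, 95% interval −0.44 to 0.015, adjusted p = 0.0926). The helicase BRIP1, a BRCA1 partner, was at 4.81, 5.02 and 5.09 TPM in Ctrl, 9.07, 8.03 and 8.70 TPM in MLN, 10.5, 10.2 and 11.2 TPM in shARF and 9.65, 11.1 and 10.7 TPM in Both. It rose in PC3 cells (0.78, SE 0.079, adjusted p = 0.000327), while the shARF and Both libraries overlapped (−0.025, 95% interval −0.21 to 0.16, adjusted p = 0.798). FANCC stayed between 6.95 and 8.33 TPM on average over the 4 conditions and was called in neither drug comparison (−0.072, 95% interval −0.26 to 0.11, adjusted p = 0.445 in PC3 cells, and −0.083, 95% interval −0.25 to 0.081, adjusted p = 0.325 in PC3-shp14ARF cells).

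Of the 6 checkpoint genes, 4 fell in PC3 cells (ATM, ATR, ATRIP and CHEK1) and 2 rose (CHEK2 and TOPBP1), where 29.4% of all genes tested fell and 32.2% rose. In PC3-shp14ARF cells the same 4 fell and 0 rose, against 32.8% and 28.3%. Among 9 further checkpoint genes outside the 38, 7 rose and 2 fell in PC3 cells. At an unadjusted p below 0.05, CHEK2 and TOPBP1 were also not called in the depleted line. ATM, the kinase of double-strand breaks, was at 9.54, 9.15 and 9.24 TPM in Ctrl and 4.25, 3.76 and 3.81 TPM in MLN, and at 9.93, 8.44 and 8.92 TPM in shARF and 4.57, 5.01 and 3.90 TPM in Both. Treated and untreated libraries did not overlap in either line, and the fall was 1.22, SE 0.082, adjusted p = 6.25e-05 in PC3 cells and 1.01, SE 0.12, adjusted p = 0.000613 in PC3-shp14ARF cells.

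ATR, the kinase of stalled forks, averaged 8.38 ± 0.355 TPM in Ctrl, 5.22 ± 0.299 TPM in MLN, 9.81 ± 0.539 TPM in shARF and 5.77 ± 0.608 TPM in Both. It fell by 0.67, SE 0.080, adjusted p = 0.000616 in PC3 cells and by 0.76, SE 0.10, adjusted p = 0.000916 in PC3-shp14ARF cells. Its partner ATRIP, which brings ATR to coated single-stranded DNA, was at 7.91, 7.92 and 7.34 TPM in Ctrl, 4.45, 5.37 and 4.90 TPM in MLN, 12.3, 13.2 and 13.4 TPM in shARF and 5.96, 5.29 and 5.17 TPM in Both. The shARF libraries were the highest and the treated ones of both lines the lowest, with falls of 0.65, SE 0.10, adjusted p = 0.00160 and 1.23, SE 0.079, adjusted p = 5.21e-05. ATRIP shares 26.7% of its exonic length with TREX1 on the same strand, and TREX1 rose in MLN vs Ctrl (1.06, SE 0.093, adjusted p = 0.000176).

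CHEK1, the kinase under ATR, fell by 0.25, SE 0.068, adjusted p = 0.0197 in PC3 cells and by 0.45, SE 0.076, adjusted p = 0.00277 in PC3-shp14ARF cells. The first of these calls was lost under 6 of 14 alternatives, with an adjusted p of up to 0.107. CHEK2, the kinase under ATM, rose in PC3 cells from 18.3 ± 1.01 to 26.1 ± 0.522 TPM (0.51, SE 0.057, adjusted p = 0.000473), and its difference in PC3-shp14ARF cells was −0.13, 95% interval −0.33 to 0.060, adjusted p = 0.189. TOPBP1, the activator of ATR, rose in PC3 cells from 19.1 ± 1.46 to 26.5 ± 0.792 TPM (0.47, SE 0.070, adjusted p = 0.00156), against 0.066, 95% interval −0.12 to 0.25, adjusted p = 0.480 in PC3-shp14ARF cells.

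Of the genes of junction resolution and end joining, MUS81 and POLQ rose in both lines. MUS81, a nuclease that cuts joint molecules, was at 21.7, 19.2 and 22.7 TPM in Ctrl and 54.1, 55.7 and 58.5 TPM in MLN, and at 17.3, 15.7 and 18.9 TPM in shARF and 47.7, 43.5 and 51.4 TPM in Both. Its rise was 1.40, SE 0.074, adjusted p = 2.71e-05 in PC3 cells and 1.45, SE 0.091, adjusted p = 4.70e-05 in PC3-shp14ARF cells, and treated libraries stood far above untreated ones in both. EME1, the partner of MUS81 in the nuclease, did not rise with it. It averaged 12.8 ± 1.82 TPM in Ctrl and 11.6 ± 0.696 TPM in MLN (−0.13, 95% interval −0.42 to 0.15, adjusted p = 0.366), and fell from 20.7 ± 0.107 to 12.8 ± 0.756 TPM in PC3-shp14ARF cells (−0.69, SE 0.056, adjusted p = 0.000126). POLQ, the polymerase of microhomology-mediated end joining, was at 3.03, 2.72 and 3.77 TPM in Ctrl, 7.83, 8.17 and 7.86 TPM in MLN, 5.24, 4.96 and 5.32 TPM in shARF and 9.0004, 10.9 and 9.51 TPM in Both, with rises of 1.31, SE 0.13, adjusted p = 0.000310 and 0.91, SE 0.091, adjusted p = 0.000323. The resolvase GEN1 was low, between 2.37 and 3.92 TPM on average, and was called in neither line (0.10, 95% interval −0.26 to 0.45, adjusted p = 0.583, and −0.22, 95% interval −0.44 to 0.011, adjusted p = 0.0886). MUS81 shares 13.9% of its exonic length with CFL1 and EME1 16.4% with LRRC59, on average at 409 and 470 TPM in Ctrl. The difference of CFL1 in MLN vs Ctrl was −0.080 (adjusted p = 0.476) and that of LRRC59 0.18 (adjusted p = 0.109). In the depleted line, where EME1 fell, the mean in Both over that in shARF was 0.96 for LRRC59 and 0.77 for CFL1.

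Set side by side, 17 of the 38 genes rose with MLN4924 in both lines, and 8 fell in both (PALB2, NBN, RAD50, FANCF, ATM, ATR, ATRIP and CHEK1), against 22.0% and 22.8% of all genes tested. The comparisons of the 2 lines share no library. In 7 genes a rise passed in PC3 cells and no change passed in PC3-shp14ARF cells (BRCA1, BRCA2, RAD51C, FANCE, BRIP1, CHEK2 and TOPBP1), and in 4 a fall passed in PC3-shp14ARF cells and no change in PC3 cells (MRE11, MDC1, FANCD2 and EME1). These patterns were found in 8.87% and 8.61% of all genes. In PC3-shp14ARF cells a rise of BRCA1 passed under 4 of 13 alternatives, and a rise of RAD51C and a fall of FANCE under 1 each. In PC3 cells a fall of MDC1 passed under 2 of 14 alternatives and a rise of FANCD2 under 1. None of the 38 genes passed in opposite directions in these 2 comparisons, as 2.28% of all genes did.

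Whether the responses differed was tested by the interaction over all 12 libraries, the log2 fold change of Both vs shARF minus that of MLN vs Ctrl. It was below 0 in 17 of the 38 genes and above 0 in 0, with 21 not past the threshold, against 17.1% and 11.2% of all genes tested. At an unadjusted p below 0.05, 21 were below and 1, RBBP8, above 0. In 3 genes the interaction was below −1, against 4.95% of all genes. The median over the 38 genes was −0.32, and over all genes −0.085. The 4 epithelial markers had an interaction below 0 as well (median −1.16).

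The 3 genes below −1 were XRCC3 (−1.10, SE 0.12, adjusted p = 5.63e-05), EXO1 (−1.08, SE 0.11, adjusted p = 3.52e-05) and RAD54L (−1.05, SE 0.14, adjusted p = 0.000203). In each, MLN4924 raised the level in both lines and the shARF libraries were above the Ctrl ones, as the values above show. Without drug 30 of the 38 genes were higher in shARF. The difference of shARF from Ctrl enters the interaction with a minus sign, so it is not separate support. BRIP1 (−0.80, SE 0.12, adjusted p = 0.000346) and FANCE (−0.79, SE 0.11, adjusted p = 0.000360) came next, both with a rise in PC3 cells and no change past the threshold in PC3-shp14ARF cells. In all, 13 of the 17 genes were higher in MLN than in Ctrl, as were 24 of all 38. MLN vs Ctrl enters the interaction with a minus sign, so a rise there favours a value below 0. The count of 13 is therefore not separate support. In MDC1 (−0.70, SE 0.15, adjusted p = 0.00392), EME1 (−0.56, SE 0.14, adjusted p = 0.00889) and FANCD2 (−0.44, SE 0.14, adjusted p = 0.0325) a fall passed in PC3-shp14ARF cells. ATRIP fell in both lines and more in PC3-shp14ARF cells (−0.59, SE 0.13, adjusted p = 0.00554). BRCA2 had the weakest of these calls (−0.53, SE 0.18, adjusted p = 0.0493), which was lost under 16 of 19 alternatives with an adjusted p of up to 0.250, and those of FANCD2 and FANCI were lost under 10 and 3. A block on the library numbers also lost the calls of BRCA1, BARD1, MDC1, TOPBP1 and EME1.

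Several of the largest responses did not differ between the lines past the threshold. The interaction of RAD51AP1 was −0.12, 95% interval −0.34 to 0.11, adjusted p = 0.447, that of MUS81 0.050, 95% interval −0.22 to 0.32, adjusted p = 0.803, and that of FANCL −0.011, 95% interval −0.30 to 0.27, adjusted p = 0.962. FANCF (0.34, 95% interval −0.019 to 0.70, adjusted p = 0.148), ATM (0.22, 95% interval −0.11 to 0.54, adjusted p = 0.319) and RAD50 (0.10, 95% interval −0.54 to 0.74, adjusted p = 0.837), the genes that fell most in PC3 cells, did not pass either. The interval of RAD50 was the widest of these.

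The depletion of p14ARF was compared without drug (shARF vs Ctrl) and under MLN4924 (Both vs MLN). The first comparison uses the same Ctrl libraries as MLN vs Ctrl, and the second the MLN libraries. Without drug 30 of 38 genes were higher in shARF, 1 was lower and 7 did not pass, where 21.0% of all genes tested were higher and 20.4% lower. Under a block on the library numbers none of the 38 passed in this comparison. By more than 1 on the log2 scale 5 were higher, against 3.87% of all genes. The median was 0.60 over the 38 genes and 0 over all genes. Under MLN4924 10 were higher in Both than in MLN, 2 were lower and 26 did not pass, against 11.8% and 20.6% of all genes, with a median of 0.18 over the 38 and −0.080 over all.

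Of the 10 BRCA complex and recombination mediator genes, 10 were higher in shARF than in Ctrl, against 21.0% of all genes tested. So were 4 of 7 of break sensing and resection, 8 of 11 Fanconi genes, 5 of 6 checkpoint genes and 3 of 4 of junction resolution and end joining. The 5 largest differences were those of EXO1 (1.33, SE 0.070, adjusted p = 0.000206), XRCC3 (1.32, SE 0.091, adjusted p = 0.000451), RAD54L (1.22, SE 0.084, adjusted p = 0.000451), BRCA1 (1.16, SE 0.11, adjusted p = 0.00127) and BRIP1 (1.08, SE 0.058, adjusted p = 0.000221). Every shARF library of these 5 was above every Ctrl library, as it was for FANCL, which did not pass. The share of all genes without overlap was not counted. FANCI (0.94, SE 0.059, adjusted p = 0.000341), FANCA (0.92, SE 0.069, adjusted p = 0.000572), TOPBP1 (0.81, SE 0.068, adjusted p = 0.000798) and BLM (0.81, SE 0.10, adjusted p = 0.00272) followed. RAD51AP1, with the largest rise under the drug, differed by 0.30, SE 0.059, adjusted p = 0.0125. FANCF was the 1 gene lower in shARF (−0.37, SE 0.11, adjusted p = 0.0454), a call lost under 8 of 14 alternatives. Among the higher genes the calls of FANCC, FANCG and RAD54B were lost under 8, 6 and 5 of 14. Apart from ATR, described below, the other higher calls were lost only under a block on the library numbers. Under that block 28 genes were higher and 2 lower at an unadjusted limma p below 0.05. The genes not past the threshold were RAD50, RBBP8, MDC1, FANCL, FANCM, ATM and MUS81, from −0.29 for MUS81 (0.0598 adjusted p) to 0.32 for FANCL (0.0645 adjusted p).

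In 5 genes that fell with MLN4924 in PC3 cells, the shARF libraries were above the Ctrl ones: PALB2 (0.29, SE 0.042, adjusted p = 0.00443), NBN (0.56, SE 0.056, adjusted p = 0.00134), ATR (0.22, SE 0.062, adjusted p = 0.0373), ATRIP (0.74, SE 0.057, adjusted p = 0.000593) and CHEK1 (0.36, SE 0.035, adjusted p = 0.00125). The call of ATR was lost under 8 of 14 alternatives, with an adjusted p of up to 0.211. For 20 genes the level was higher than Ctrl both in MLN and in shARF. In these comparisons taken singly, 32.2% and 21.0% of all genes tested were higher. The share of all genes with both calls was not counted, nor that of genes lower in MLN and higher in shARF. The 2 comparisons share the Ctrl libraries, so the number of 20 is not independent evidence of a link.

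With MLN4924 present, the genes furthest above the PC3 level were FANCI (0.60, SE 0.068, adjusted p = 0.00221), BLM (0.59, SE 0.14, adjusted p = 0.0243), XRCC2 (0.58, SE 0.13, adjusted p = 0.0180) and RAD54B (0.52, SE 0.083, adjusted p = 0.00666). In each every Both library was above every MLN library. The same held for genes that did not pass, such as BARD1 and POLQ, and the share of all genes without overlap was not counted. BRCA1 (0.50, SE 0.074, adjusted p = 0.00509), UBE2T (0.41, SE 0.11, adjusted p = 0.0347), TOPBP1 (0.41, SE 0.077, adjusted p = 0.0111), RBBP8 (0.36, SE 0.10, adjusted p = 0.0335), FANCL (0.31, SE 0.068, adjusted p = 0.0182) and RAD51C (0.21, SE 0.059, adjusted p = 0.0417) were also higher. MDC1 (−0.50, SE 0.087, adjusted p = 0.00858) and FANCE (−0.47, SE 0.094, adjusted p = 0.0143) were lower. Of 13 alternatives, 8 lost the call of RAD51C, 7 each those of RBBP8 and UBE2T, 5 that of BLM and 2 each those of XRCC2, FANCL and FANCE, with an adjusted p of up to 0.108. XRCC3, RAD54L and EXO1, which stood apart between the untreated lines, had differences of 0.22, 95% interval 0.022 to 0.41, adjusted p = 0.0867, of 0.17, 95% interval −0.10 to 0.44, adjusted p = 0.284 and of 0.25, 95% interval 0.046 to 0.45, adjusted p = 0.0661. Of these 10 higher and 2 lower calls, 5 were kept under every alternative. A median-of-ratios scaling of the TPM values gave 18 higher in place of 10.

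**Figure D3:**
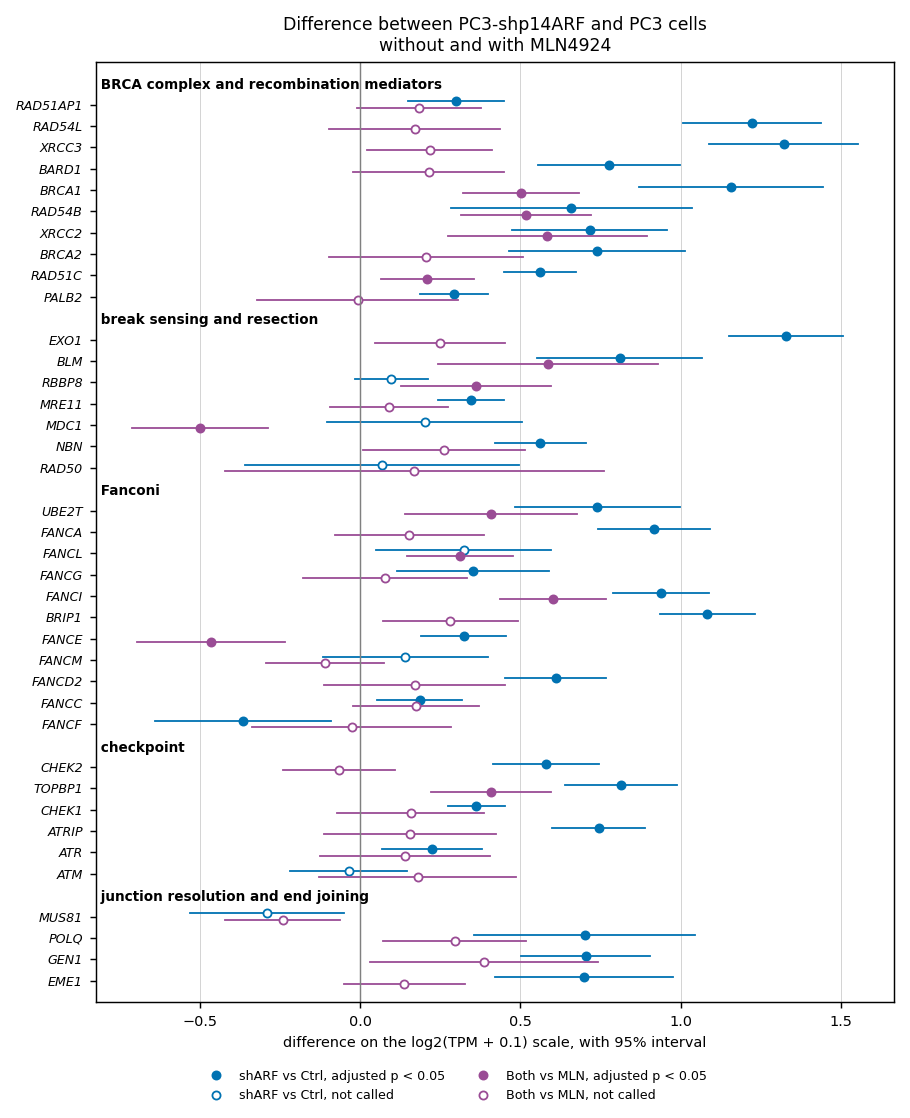
Log2(TPM + 0.1) difference between PC3-shp14ARF and PC3 cells with its 95% interval (horizontal axis) for each of the 38 genes by role, without drug (shARF vs Ctrl) and with MLN4924 (Both vs MLN); filled points passed an adjusted p of 0.05. Without drug most points lie right of 0, up to 1.33 for EXO1, and with the drug they lie between −0.50 (MDC1) and 0.60 (FANCI).

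A list of 67 further genes of the DNA damage response was examined beside the 38, of which 66 were in the table and 65 were tested. In MLN vs Ctrl 31 of the 65 rose (47.7%, against 32.2% of all genes), 21 fell (32.3%, against 29.4%) and 13 did not pass, with a median of 0.21. In Both vs shARF 26 rose (40%, against 28.3%) and 20 fell (30.8%, against 32.8%), with a median of 0.088. In shARF vs Ctrl 32 were higher (49.2%, against 21.0%) and 10 lower (15.4%, against 20.4%), with a median of 0.26. In Both vs MLN 12 were higher (18.5%, against 11.8%) and 8 lower (12.3%, against 20.6%), with a median of 0.071. For the interaction 21 were below 0 (32.3%, against 17.1%) and 6 above (9.23%, against 11.2%), with a median of −0.16. The shares that fell in MLN vs Ctrl and in Both vs shARF were close to those of all genes.

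The largest changes in MLN vs Ctrl on this list were a rise of CLSPN and a fall of BABAM2. CLSPN, the claspin adaptor that lets ATR phosphorylate CHEK1, was at 4.19, 4.56 and 4.13 TPM in Ctrl and 18.3, 18.98 and 22.8 TPM in MLN (2.19, SE 0.10, adjusted p = 1.87e-05), and rose by less in PC3-shp14ARF cells (1.34, SE 0.067, adjusted p = 2.12e-05, and for the interaction −0.85, SE 0.13, adjusted p = 0.000479). BABAM2 and BRCC3, which belong to the BRCA1-A complex that trims ubiquitin chains at breaks, fell in PC3 cells by 2.10, SE 0.080, adjusted p = 1.01e-05 and by 1.53, SE 0.073, adjusted p = 1.90e-05. Both were low in every treated library of either line, at 14.7 ± 1.32 TPM in MLN against 63.2 ± 3.02 TPM in Ctrl for BABAM2 and at 16.8 ± 1.12 against 48.8 ± 2.94 TPM for BRCC3. The MCM8 helicase (1.48, SE 0.077, adjusted p = 2.53e-05) and its partner HROB (1.62, SE 0.13, adjusted p = 0.000124) rose together, and so did CENPX (1.61, SE 0.089, adjusted p = 3.12e-05), a histone-fold partner of FANCM. ZSWIM7, of the Shu complex of recombination mediators (−1.68, SE 0.094, adjusted p = 3.29e-05), and RAD51B (−1.58, SE 0.14, adjusted p = 0.000179) fell.

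Many of the 38 genes are known to be transcribed in S and G2 phase, and 12 proliferation markers were read beside them. In MLN vs Ctrl 8 of 12 were higher and 4 lower (MKI67, TOP2A, CCNB1 and PLK1), against 32.2% and 29.4% of all genes tested. In Both vs shARF 5 were higher and 7 lower, against 28.3% and 32.8%. In shARF vs Ctrl 12 were higher, against 21.0%, and in Both vs MLN 3 were higher and 1 was lower, against 11.8% and 20.6%. The interaction was below 0 in 11 of 12, against 17.1%. Their summed level ran from 738 to 827 TPM in Ctrl, 1673 to 1796 TPM in MLN, 1448 to 1458 TPM in shARF and 1846 to 1903 TPM in Both, and the libraries of the 4 conditions did not overlap. None of the 12 was at 0. PLK1, a mitotic kinase, averaged 53.1 ± 1.72 TPM in Ctrl and 13.1 ± 2.27 TPM in MLN, while CCNE2, the cyclin of S-phase entry, averaged 5.37 ± 0.256 TPM in Ctrl and 47.6 ± 4.93 TPM in MLN. The part of these markers in the differences of the 38 genes was not tested.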

How the data were processed

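The authors isolated total RNA, had it sequenced, trimmed adapters, mapped the reads to hg38 and quantified genes with CLC Genomics Workbench, using Ensembl annotation. The deposited values are TPM for 43622 genes in 12 libraries, 3 for each condition, and strandedness and read layout are not given in the sources used here. The 4 samples of the labels each correspond to 3 columns, matched by the condition in the column name.

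From the TPM values, log2(TPM + 0.1) was fitted by limma 3.58.1 (R 4.3.3, eBayes with a mean-variance trend) to the 19932 genes whose mean reached 0.1 TPM. Pairwise comparisons were fitted to their own 6 libraries and the interaction to all 12, and p-values were adjusted by Benjamini-Hochberg over every gene tested. Calls needed an adjusted p below 0.05. Values are the log2 fold change with its standard error (SE) or 95% interval.

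The 38 genes, the lists and the roles were chosen with earlier results of these data known. Per-library values are given for the 10 genes with the largest change in MLN vs Ctrl, the 5 with the largest interaction and the 4 with the largest change in each of shARF vs Ctrl and Both vs MLN, and of the 67 further genes up to 8 beyond 1 in MLN vs Ctrl are named. Further genes of the 67 named under Other observations fall outside this rule. RAD50 and ATRIP are also given per library, chosen after their values were seen. The genes that share exons with the 38 were read after the values were seen. Of the 67 genes, HROB, SHLD1, SHLD2 and H2AX were found under older symbols. Gene models are from GENCODE and promoters from RefSeq.

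The fits were first tested on simulated data with known changes in 200 genes drawn from all those tested. They recovered 62.5% to 71% of these changes, and 50% to 64% of those of 1 on the log2 scale. Between 0 and 9 unchanged genes were called. Recovery at the levels of the genes described here was not worked out separately. A gene that did not pass may therefore still have changed. Alternatives changed the pseudocount (1 or 0.01), the filter (1 TPM or none), the scaling (median of ratios), the trend, the libraries in the fit (12, or 1 left out) and the block on library numbers.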

Additional observations from a re-analysis of the deposited data

Results flagged for a closer look

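The log2 response to MLN4924 differed between PC3-shp14ARF and PC3 cells in 17 of the 38 genes by the interaction test (limma, 12 libraries, adjusted p below 0.05), all below 0, where 17.1% of all genes tested were below and 11.2% above 0. The differences, as the change in Both vs shARF minus that in MLN vs Ctrl, were −1.10 for XRCC3, −1.08 for EXO1, −1.05 for RAD54L, −0.80 for BRIP1 and −0.79 for FANCE. They were −0.76 for FANCA, −0.70 for MDC1, −0.65 for BRCA1, −0.65 for CHEK2, −0.59 for ATRIP and −0.56 for BARD1. The remaining 6 were −0.56 for EME1, −0.53 for BRCA2, −0.44 for FANCD2, −0.41 for TOPBP1, −0.35 for RAD51C and −0.34 for FANCI. The calls of BRCA2, FANCD2 and FANCI were lost under 16, 10 and 3 of 19 alternatives. Those of BRCA1, BARD1, MDC1, TOPBP1 and EME1 were lost under 1 each, the block on the library numbers. Of the 17 genes, 13 were higher in MLN than in Ctrl, as were 24 of all 38, and MLN vs Ctrl is itself part of the contrast. In ATRIP the drug lowered the level in both lines.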

How the results depend on the processing

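Of 2774 values of single genes under the alternatives, 2531 kept their direction and side of the threshold, 159 lost a call, 45 gained one and 39 changed sign, each in a comparison where the gene was not called. Leaving the block aside, every alternative kept 31 of 32 calls in MLN vs Ctrl, 27 of 29 in Both vs shARF, 26 of 31 in shARF vs Ctrl, 5 of 12 in Both vs MLN and 14 of 17 for the interaction. TPM hides the depth, so the counting error of low genes such as BRCA2 and GEN1 is not known.

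What the library numbers mean is not given in the sources used here. Across genes, the deviations of same-numbered libraries from their condition means had correlations from −0.147 to 0.0630. Such values cannot exclude a pairing that touched only some genes. With a replicate block on these numbers, MLN vs Ctrl had 17 calls, 15 higher and 2 lower, shARF vs Ctrl had 0 in either direction and 0 beyond 1 (28 higher and 2 lower at an unadjusted p below 0.05), and the interaction had 9, all lower, 1 of them below −1. Both vs shARF and Both vs MLN share 1 number each, so no block was fitted there. Median-of-ratios scaling, which moved the median of all genes by at most 0.093, gave 20 calls in Both vs MLN, 18 of them higher, 2 genes in Both vs shARF below −1 (also 2 at a pseudocount of 1), and for the interaction 1 above 0 and 1 below −1. The lower calls of shARF vs Ctrl numbered 2 with that scaling, with a filter at 1 TPM and with 12 libraries in one fit, and 0 without a filter or without trend.

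Without 1 library, calls ranged from 7 to 10 in Both vs MLN (5 to 8 higher and 1 to 3 lower), the lower calls of shARF vs Ctrl from 0 to 2 and the positive interactions from 0 to 1. Both vs MLN had 7 calls without MLN replicate 2 and 7 without Both replicate 3.

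Signs changed under median-of-ratios scaling for FANCC (0.012) and BRIP1 (0.070) in Both vs shARF, for PALB2 (0.084), FANCF (0.063) and CHEK2 (0.026) in Both vs MLN, and for the interaction of FANCC (0.086), FANCL (0.087) and ATR (0.014). The block turned the interaction of XRCC2 (0.066), FANCC (0.028) and ATR (0.0070), and a pseudocount of 1 that of FANCL (0.0027). The ranges without 1 library that crossed 0 were, in MLN vs Ctrl, −0.020 to 0.19 for GEN1. In Both vs shARF they were −0.069 to 0.032 for BRIP1, −0.019 to 0.088 for BRCA2 and −0.0025 to 0.13 for TOPBP1. In shARF vs Ctrl they were −0.064 to 0.18 for RAD50 and −0.10 to 0.016 for ATM. In Both vs MLN they were −0.083 to 0.13 for PALB2, −0.12 to 0.061 for FANCF, −0.031 to 0.14 for FANCG and −0.084 to 0.31 for RAD50. For the interaction they were −0.15 to 0.24 for RAD50, −0.053 to 0.028 for FANCC, −0.11 to 0.049 for FANCL and −0.016 to 0.12 for MUS81. The cause was not tested.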

Other observations

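Within the 67 further genes of the DNA damage response, the groups went different ways under MLN4924 in PC3 cells. Of the 9 checkpoint genes 7 rose and 2 fell in MLN vs Ctrl (32.2% and 29.4% of all genes tested), among them the clamp subunits RAD9A (1.02, SE 0.10, adjusted p = 0.000328) and RAD1 (1.03, SE 0.055, adjusted p = 2.84e-05), whereas the third clamp subunit HUS1 fell (−1.21, SE 0.10, adjusted p = 0.000118) and fell in PC3-shp14ARF cells as well (−1.26, SE 0.054, adjusted p = 1.27e-05). Of the 12 tested genes of the chromatin response at breaks 3 rose and 7 fell, and in PC3-shp14ARF cells 1 rose and 7 fell, where 28.3% of all genes rose and 32.8% fell. SHLD1 (−1.15, SE 0.087, adjusted p = 9.72e-05) and SHLD2 (−0.74, SE 0.049, adjusted p = 5.88e-05), subunits of the shieldin complex that limits resection, were among those that fell. RNF168 of the same group went the other way, with a mean in MLN 2.23 times that in Ctrl.

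Of the 10 genes of non-homologous and alternative end joining 2 rose, 5 fell and 3 did not pass in MLN vs Ctrl, against 32.2% and 29.4% of all genes. Those that rose were PAXX (0.98, SE 0.058, adjusted p = 4.02e-05) and XRCC4 (0.31, SE 0.10, adjusted p = 0.0355). NHEJ1 fell (−1.04, SE 0.11, adjusted p = 0.000398). The subunits of the DNA-dependent protein kinase PRKDC (−1.04, SE 0.057, adjusted p = 3.06e-05), XRCC5 (−1.07, SE 0.069, adjusted p = 5.19e-05) and XRCC6 (−0.30, SE 0.053, adjusted p = 0.00349) fell as well, with PARP1 (−0.67, SE 0.086, adjusted p = 0.000846), a sensor of strand breaks. In PC3-shp14ARF cells they fell by 0.94, SE 0.086, adjusted p = 0.000221 for PRKDC, by 0.82, SE 0.070, adjusted p = 0.000160 for XRCC5, by 0.52, SE 0.052, adjusted p = 0.000309 for XRCC6 and by 0.89, SE 0.061, adjusted p = 6.63e-05 for PARP1. The genes named in this paragraph and the one before it were picked for display after their values were seen.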
